A study of Mus musculus with 6 samples.

Results

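The 4 Hox clusters and the limb identity genes Pitx1, Tbx4, Tbx5 and Tbx15 were followed in ATAC-seq data from mouse skeletal muscle nuclei. Intervals of the count table were taken when they overlapped the body of one of these protein-coding genes, or lay within 5 kb of one of its transcription start sites (TSSs), in the GENCODE vM1 annotation of mm9. The rule gave 32 intervals of 39768, and 27 of them belong to Hox genes and 5 to Tbx15. ATAC-seq counts the fragment ends left by the Tn5 transposase, which cuts exposed DNA, so that a high count in an interval stands for accessible chromatin. There were 3 CTL libraries and 3 libraries labelled H2A.Z dKO, each made from 50000 nuclei of C57BL/6 mice aged 7 weeks. Both groups were homozygous (flox/flox) for floxed H2A.Z-1 (H2afz) and H2A.Z-2 (H2afv), and the group labelled dKO also carried HSA-Cre, whereas CTL had no Cre and is named WT in the sample labels. The human α-skeletal actin promoter drives this Cre in muscle fibres, so that nuclei of other cells in the muscle keep their H2A.Z genes. The labels name tibialis anterior and ultracentrifuged nuclei, while the methods describe hind limb muscles broken in a Dounce homogenizer.

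Hox genes encode homeodomain transcription factors that give cells their position along the body axis and, for the Hoxa and Hoxd clusters, along the limb. Their order on the chromosome follows their order of use, from anterior genes of low number to posterior genes of high number, and Polycomb and Trithorax complexes hold the clusters silent or active. Pitx1 and Tbx4 specify the hindlimb, Tbx5 the forelimb, and Tbx15 is a T-box factor of skeleton, skin and glycolytic muscle fibres. Adult cells are known to retain parts of the Hox code of the place where they arose.

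Summed counts were 6117245, 4629146 and 3520008 in CTL replicates 1, 2 and 3, and ranged from 4549968 to 5873299 in the dKO-labelled libraries. The labels do not say whether replicates came from separate animals, so p-values measure only the spread between these libraries. Among the floxed segments, exons 2 to 4 of H2afz (chr3:137528097-137529104) hold 2 intervals, whose counts, scaled to library size (CPM), were 12.4 ± 2.83 in CTL and 11.3 ± 1.28 in the dKO-labelled libraries (SD, n = 3). The ranges of the groups overlapped, and exons 4 and 5 of H2afv hold 0 intervals, so the counts in the deleted segments did not separate the labels. The dKO-labelled replicate 1 stood apart, with 77.0% of its counts in promoter intervals (midpoint within 1 kb of a TSS) against 73.2 to 74.9% in the other 5 libraries. Of 10 muscle fibre markers, 7 had a promoter interval. In nuclei of a whole muscle, fewer accessible nuclei and less accessibility per nucleus cannot be told apart.

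The sequences below, read from the plus strand of mm9, show intervals of Hoxa, Hoxd and Tbx15 on which the description turns. They are the widest interval at the start of Hoxa7, the start region of Hoxa4, and intervals of Hoxd3 and Tbx15 among the 3 members with the smallest p in each direction. Capitals mark matches, on either strand, to a CCAAT box (CCAAT), a HOX-PBX motif (TGATNNAT) or an AP-1-like site (TGANTCA).
Hoxa7 upstream, Peak_12884, chr6:52171843-52171958: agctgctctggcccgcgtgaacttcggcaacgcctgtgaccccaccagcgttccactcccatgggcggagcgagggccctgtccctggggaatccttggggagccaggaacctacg
Hoxa4 start, Peak_12878, chr6:52141861-52142035: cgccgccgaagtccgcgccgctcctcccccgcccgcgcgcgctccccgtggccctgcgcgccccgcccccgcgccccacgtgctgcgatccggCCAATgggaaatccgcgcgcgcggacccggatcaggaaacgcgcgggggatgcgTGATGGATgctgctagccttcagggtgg
Hoxd3 intron, Peak_3614, chr2:74553925-74553957: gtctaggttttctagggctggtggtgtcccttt
Tbx15 intron, Peak_6539, chr3:99057134-99057316: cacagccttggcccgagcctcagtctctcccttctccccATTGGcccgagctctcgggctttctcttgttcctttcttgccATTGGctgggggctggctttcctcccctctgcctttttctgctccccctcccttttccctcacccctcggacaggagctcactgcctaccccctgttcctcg
Tbx15 intron, Peak_6542, chr3:99100117-99100164: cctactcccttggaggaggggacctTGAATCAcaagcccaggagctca

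The clusters differed in how many intervals they held. Hoxa had 17 intervals over 105.5 kb (chr6:52105366-52210874), or 16.1 per 100 kb. Hoxc had 7 over 115.7 kb (chr15:102751534-102867274), or 6.05 per 100 kb, and Hoxd had 3 over 96.8 kb (chr2:74506367-74603200), or 3.10 per 100 kb. No interval of the table analysed here lies in or near the 10 Hoxb genes (chr11:96055630-96229570), and none lies at Pitx1, Tbx4 or Tbx5. Tbx15 (chr3:99044304-99158182) had 5 intervals over 113.9 kb, all in introns. Over the covered length, CTL had 114 ± 5.25 RPKM in Hoxa, 117 ± 11.3 in Hoxc, 78.5 ± 19.3 in Hoxd and 90.1 ± 9.89 at Tbx15 (SD, n = 3), where RPKM is the scaled count of fragment ends (CPM) per kb of interval. Hoxa and Hoxc lay within each other's spread, and both were above Tbx15 on average. The methods name a larger set of intervals than the table analysed here, so a gene without one is only not covered by it.

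Of the 32 intervals, 26 (81.2%) were promoter intervals, against 52.4% of all intervals, and the other 6 lay further inside a gene or its flank. The sum of counts in all intervals served as the size of the library in RPKM. The median over the members was 104 RPKM, compared with 116 for all intervals and 133 for promoter intervals, and 11 of the 32 lay above the median of all. Their percentiles in the whole table ran from 1.89 to 94.2. A column made by the authors lists each interval for 1 group or both, and it assigned 21 members (65.6%) to H2A.Z dKO alone, against 43.4% of all intervals, 3 members (9.38%, against 17.9%) to CTL alone and 8 (25%, against 38.7%) to both. That column records where peaks were called and is no measure of a difference in counts.

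**Figure D1:**
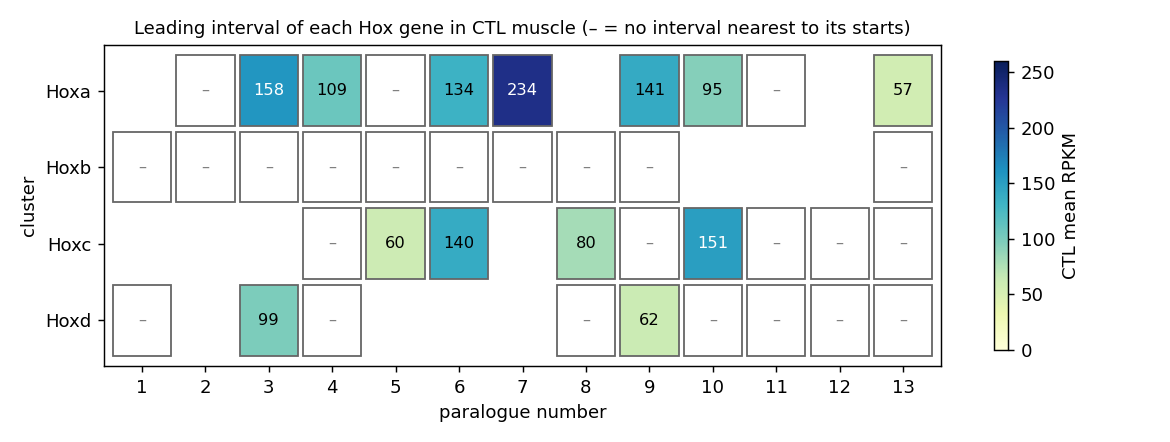
Mean RPKM over the 3 CTL libraries of the leading interval of each Hox gene (highest mean over 6 libraries), by cluster (rows) and paralogue number (columns); a dash marks a gene to which no interval is nearest, and an empty place a number that the cluster lacks or that is not shown. Values run from 56.8 RPKM at Hoxa13 to 234 RPKM at Hoxa7, with none for the 10 Hoxb genes, and the Hoxd3 value is from an interval at a TSS of 1700109F18Rik.

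Each interval was assigned to the gene, among those studied here, whose TSS is nearest to its midpoint, and 14 of 39 Hox genes then had at least 1. At 6 of the 32 intervals an annotated TSS outside the set was nearer still, and 24 of the 26 promoter intervals lay within 1 kb of a TSS of their own gene. The other 2 are those given to Hoxd3, which lie 20 and 113 bp from a TSS of 1700109F18Rik and about 4 kb from that of Hoxd3. The plot of leading intervals by paralogue number shows them spread over most of Hoxa, from Hoxc5 to Hoxc10 in Hoxc and at only Hoxd3 and Hoxd9 of Hoxd. The anterior genes without one were Hoxa2, Hoxa5, Hoxc4, Hoxd1 and Hoxd4. The posterior genes Hoxa11, Hoxc11, Hoxc12, Hoxc13, Hoxd10, Hoxd11, Hoxd12 and Hoxd13, which pattern the distal limb and the tail end of the axis, also had none, nor had Hoxc9 and Hoxd8. Hoxa10 and Hoxc10, with 3 intervals each, and Hoxa13, with 1, were the genes numbered 10 or higher that had any.

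**Figure D2:**
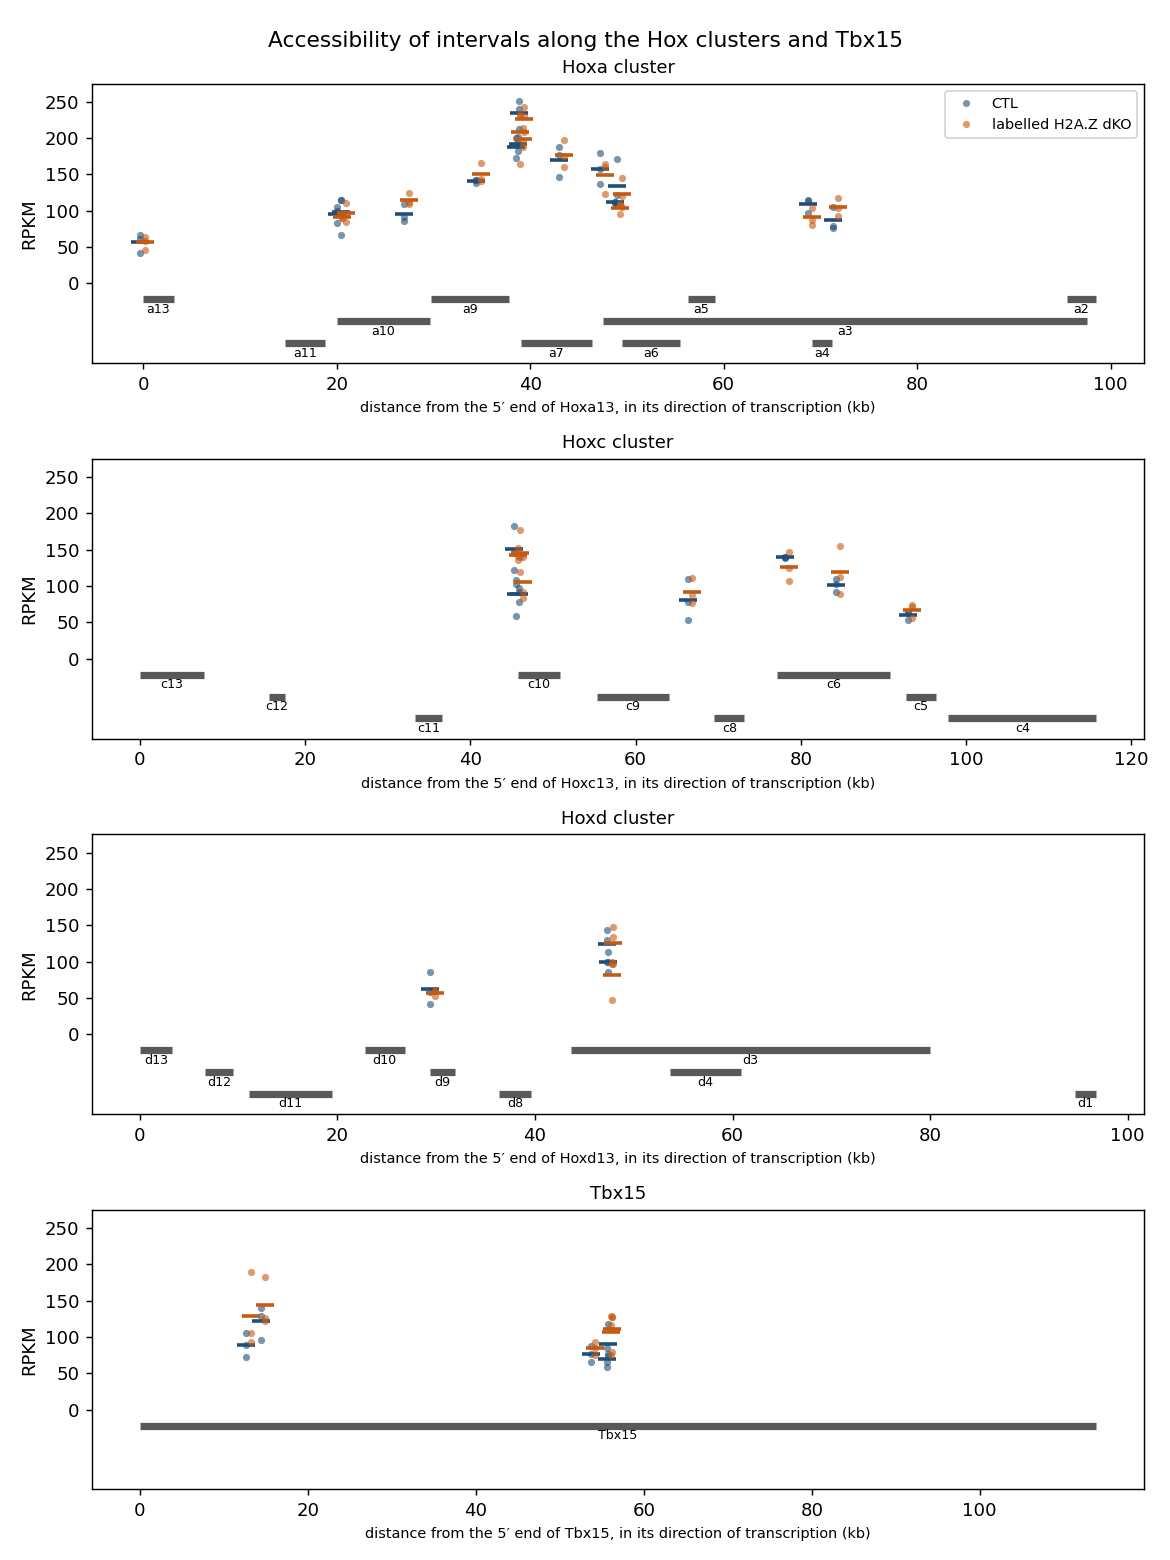
RPKM of each interval (points, 1 per library; horizontal marks, means of 3 libraries) against its distance in kb from the 5′ end of the first gene of the locus, for CTL and for the dKO-labelled libraries; grey bars are genes and are not on the RPKM scale, and 29 of 32 intervals are drawn. Points are drawn slightly apart by group, and the highest level lies at Hoxa7, with 234 and 227 RPKM in the groups.

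Within Hoxa, accessibility was higher in the centre than at the posterior end. The 8 intervals from Hoxa6 to Hoxa9, which take in the distal start of Hoxa3, had 165 ± 2.94 RPKM (SD, n = 3) in CTL and held 42.0% of the cluster's counts. The 4 intervals of Hoxa10 and Hoxa13 had 81.9 ± 4.31 RPKM (SD, n = 3) and 20.5% of the counts. These ranges in CTL did not overlap (162 to 168 and 77.0 to 84.9 RPKM), and the order was the same in the dKO-labelled libraries, at 166 ± 7.62 and 84.6 ± 5.25 RPKM (SD, n = 3). These segments were drawn after the values were seen, and no test was made between them. Narrow intervals read high on this scale, with a median of 140 RPKM at 36 bp or less and of 97.4 from 73 to 150 bp over all intervals. With 73 bp, the window centred on each fragment end when the authors called peaks, added to each width, the CTL levels were 79.7 and 53.1, in the same order but closer together. The methods word the extension used for counting differently from that for calling. This wider width is therefore an allowance and may exceed what the counts used.

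Hoxa7, a central gene of the trunk code, led the cluster with Peak_12883 (chr6:52171723-52171780, 58 bp) in its 5′ UTR. It counted 89, 57 and 49 fragment ends in CTL replicates 1, 2 and 3, and 71, 64 and 67 in the dKO-labelled replicates, or 234 ± 19.9 and 227 ± 17.3 RPKM (SD, n = 3). It ranked at percentile 94.2 of all intervals, or 76.4 with the wider width, where Peak_12884 (83.4) and Peak_12882 (76.9) of the same gene ranked above it, and the libraries of the groups interleaved. The upstream interval Peak_12884, whose sequence is printed above, counted 129, 108 and 79 in CTL and 128, 113 and 113 in the dKO-labelled libraries. Its levels of 192 ± 9.74 RPKM and 199 ± 13.7 RPKM (SD, n = 3) differed by less than the spread. The other 2 intervals of Hoxa7 had 170 ± 21.7 (Peak_12882, in an intron) and 188 ± 13.9 RPKM (SD, n = 3) in CTL, and the second, Peak_12885, is only 17 bp wide and fell from percentile 89.1 to 15.6 with the wider width.

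Next to Hoxa7 on the chromosome, the distal start of Hoxa3 had 158 ± 21.9 RPKM, Hoxa9 had 141 ± 2.21 and the leading interval of Hoxa6 had 134 ± 33.2 (SD, n = 3) in CTL. These 3 neighbours in the order of levels lay within each other's spread. Hoxa4 led with Peak_12878, at 109 ± 10.0 RPKM, and Hoxa10 with Peak_12887, at 95.4 ± 12.8 (SD, n = 3), which also do not separate. With the wider width, the narrow intervals of Hoxa3 (36 bp) and Hoxa6 (48 bp) fell from percentiles 74.4 and 59.8 to 33.7 and 34.1. The leading intervals of Hoxa4 (55.5) and Hoxa10 (50.8) then ranked above both, and that of Hoxa9 ranked above all of these, at 59.6. The remaining intervals of Hoxa10, Peak_12888 and Peak_12889, had 98.9 ± 27.7 and 96.0 ± 10.9 RPKM, and Peak_12877 downstream of the Hoxa4 start had 86.8 ± 16.2 (SD, n = 3). Hoxa13 patterns the hand and foot, and at its interval CTL counted 73, 38 and 46 over 195 bp and the dKO-labelled libraries 53, 52 and 63. Its 56.8 ± 13.0 RPKM (SD, n = 3) in CTL was the lowest of the members, at percentile 1.89 of all intervals by the mean over 6 libraries. With the wider width it was at 20.6 and other members, such as Peak_3615, lay below it. Stretches free of intervals separate these groups, with 19.6 kb from Hoxa4 to Hoxa6 and 20.2 kb from Hoxa10 to Hoxa13.

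In Hoxc the level was highest at Hoxc10, which marks the lumbar axis and the hindlimb. Peak_33099 (313 bp) ends just before its TSS and counted 279, 178 and 202 in CTL and 280, 193 and 223 in the dKO-labelled libraries. That gave 151 ± 30.5 and 143 ± 8.48 RPKM (SD, n = 3), at percentile 71.0 of all intervals, and the groups overlapped. Hoxc6 followed with 140 ± 0.907 RPKM in an intron, then Hoxc8 with 80.3 ± 28.3 and Hoxc5 with 60.1 ± 5.57 (SD, n = 3). Hoxc10 and Hoxc6 did not differ beyond their spread, nor did Hoxc8 and Hoxc5. The single interval of Hoxc8 lies 2963 bp upstream of its TSS, after a stretch of 20.4 kb from Hoxc10 without any.

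Hoxd held the fewest counts of the covered clusters. Its leading interval by the mean over 6 libraries, Peak_3615 (chr2:74554023-74554045, 23 bp), lies in an intron of Hoxd3 but 20 bp from a TSS of 1700109F18Rik, so its signal cannot be given to either gene. It counted 12, 12 and 8 in CTL and 13, 14 and 17 in the dKO-labelled libraries. These are among the lowest counts of all members, which ranged from 8 to 280, and they give 98.9 ± 13.7 and 126 ± 26.4 RPKM (SD, n = 3), with overlap. In CTL alone its neighbour Peak_3614 was higher, at 124 ± 22.9 RPKM (SD, n = 3). With the wider width Peak_3615 fell from percentile 46.6 to 3.98. Hoxd9, in its UTR, had 61.7 ± 22.8 RPKM (SD, n = 3) in CTL.

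The leading interval of Tbx15, Peak_6540 (chr3:99058877-99058984), counted 85, 48 and 53 in CTL and 80, 60 and 99 in the dKO-labelled libraries. It had 121 ± 22.6 and 144 ± 33.8 RPKM (SD, n = 3), at percentile 62.3, with dKO-labelled replicate 3 highest and the others mixed. The 5 intervals form 2 groups in the plot along the loci, parted by 39.2 kb, and 3 of them are promoter intervals of internal start sites rather than of the 5′ end of the gene. Peak_6539, Peak_6541, Peak_6542 and Peak_6543 had 88.8 ± 16.1, 76.8 ± 11.1, 69.6 ± 13.9 and 89.7 ± 24.5 RPKM in CTL (SD, n = 3), all below the leading interval on average.

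Sequence features were read in a window of 150 bp around each midpoint, on both strands. Median GC content was 62.3% in the members, 58.7% in all intervals and 65.3% in promoter intervals, and the ratio of observed to expected CpG was 0.654, 0.521 and 0.801. The HOX-PBX motif occurred in 2 members (6.25%), with the Hoxa4 interval printed above among them, against 2.07% of all windows. An E-box (CAGCTG) was found in 3 members (9.38%, against 13.8%) and the MEF2 motif (CTA, any 4 bases, TAG) in 0 of 32 (against 2.63%). An AP-1-like site (TGANTCA) was found in 2 members (6.25%, against 5.89%), and both matches read TGAATCA. A CTCF core (CCA, any 2 bases, AG, any 2 bases, GGC) lay in 4 windows (12.5%, against 6.62%), but inside the interval itself in only 1 (3.12%, against 2.72%), Peak_12889 at a start of Hoxa10. Of these 4, Peak_3614 and Peak_3615 of Hoxd3 are neighbours whose windows overlap. The CCAAT box, searched after the sequences had been read, occurred in 10 members (31.2%), compared with 18.4% of all windows and 20.4% of promoter windows. A match is a description of letters, and the 95% exact binomial interval for the CCAAT share, 16.1 to 50.0%, includes both shares.

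Accessibility was then compared between groups, to ask whether loss of H2A.Z in fibres moved these loci. By the quasi-likelihood test of edgeR, adjusted after Benjamini and Hochberg, 0 of 39768 intervals passed an adjusted p of 0.05 (0%), and 0 of the 32 members did. At an unadjusted p under 0.05, 2 members (6.25%) were called, against 4.95% of all intervals. Both were higher in the dKO-labelled libraries (2.64% of all intervals) and 0 were lower (2.31%). DESeq2 and limma voom also gave 0 adjusted calls, with 756 and 2000 of all intervals and 2 and 1 members at an unadjusted p under 0.05. Without dKO-labelled replicate 1, edgeR gave 3163 such intervals in place of 1970, 3 of them members, and without CTL replicate 3 it gave 1265, 1 of them a member. The log2 fold change was above 0 in 17 members (53.1%), against 52.5% of all intervals, with medians of 0.047 and 0.012. Groups did not overlap in the higher direction at 1 member (5.22% of all intervals) and in the lower direction at 2 (5.63%).

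**Figure D3:**
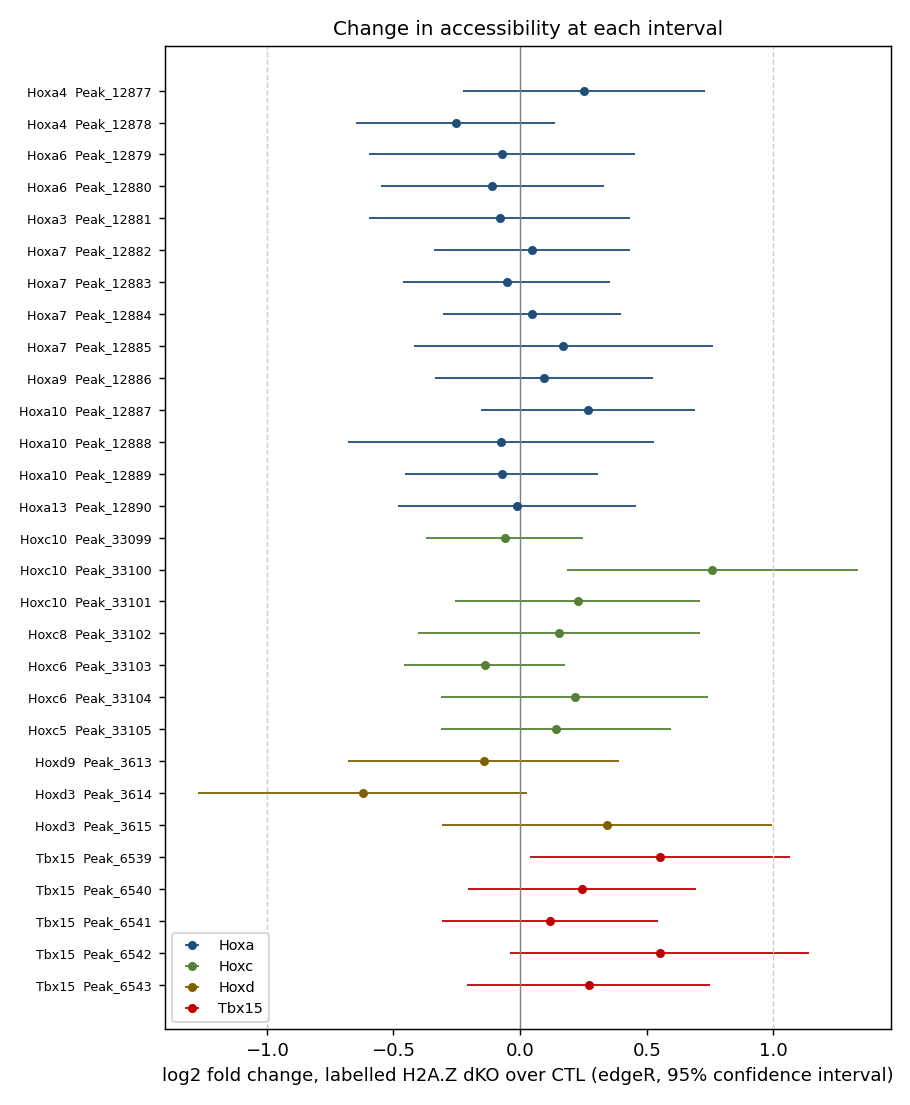
Log2 fold change of 29 of the 32 intervals, dKO-labelled libraries over CTL, with 95% confidence intervals from edgeR (n = 3 libraries per group), grouped by locus and ordered along the chromosome; dashed lines mark a 2-fold change. Among all 32, the interval lies within a 2-fold change in 28, and it leaves 0 outside only at Peak_33100 of Hoxc10 and Peak_6539 of Tbx15.

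Confidence intervals bound the size of the changes. At 28 members (87.5%, against 91.4% of all intervals) both bounds of the 95% confidence interval were under a 2-fold change, and at 12 (37.5%, against 49.6%) under a 1.5-fold change. The distance from the estimate to either bound had a median of 0.46 on the log2 scale, and members had a median of 55.3 counts per library, against 67.3 for all intervals.

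The smallest p among the members belonged to Peak_33100 (chr15:102797217-102797266), in the 5′ UTR of Hoxc10. It counted 18, 25 and 18 in CTL and 52, 32 and 30 in the dKO-labelled libraries, and every one of the latter lay above every CTL library on the scaled counts. The log2 fold change was 0.76 (SE 0.28, 95% confidence interval 0.18 to 1.33, edgeR adjusted p = 0.972), so it did not pass the adjusted test. It was 0.48 without CTL replicate 1 and 0.56 without dKO-labelled replicate 1, and in either case lost its unadjusted p under 0.05. The adjoining Peak_33099, 10 bp away and with several times the counts, had a log2 fold change of -0.06 (SE 0.15), and Peak_33101 in the coding exon had 0.23 (SE 0.23).

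At Tbx15, Peak_6539 counted 99, 89 and 47 in CTL and 203, 88 and 86 in the dKO-labelled libraries. Replicate 1 of the latter was high and the other 2 lay among or near CTL. The log2 fold change of 0.55 (SE 0.25, edgeR adjusted p = 0.972) became 0.13 without that library, which is the one with the high promoter share. Peak_6542 counted 25, 13 and 11 in CTL and 21, 28 and 28 in the dKO-labelled libraries, with a log2 fold change of 0.55 (SE 0.29, edgeR adjusted p = 0.972). Here dKO-labelled replicate 1 was the lowest of its group and the groups overlapped.

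Peak_3614 and Peak_12878 were among the members with the smallest p in the lower direction. Peak_3614 of Hoxd3 counted 20, 22 and 15 in CTL and 9, 15 and 16 in the dKO-labelled libraries, which lay below every CTL library once scaled by TMM but overlapped CTL in RPKM. Its log2 fold change was -0.62 (SE 0.31, edgeR adjusted p = 0.972) and -0.33 without dKO-labelled replicate 1, while Peak_3615, 65 bp away, had 0.34 (SE 0.31). At Hoxa4, Peak_12878 counted 104, 92 and 71 in CTL and 90, 83 and 71 in the dKO-labelled libraries, with a log2 fold change of -0.25 (SE 0.19, edgeR adjusted p = 0.972). There the groups overlapped. The other non-overlapping member, Peak_12880 of Hoxa6, had -0.11 (SE 0.21).

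**Figure D4:**
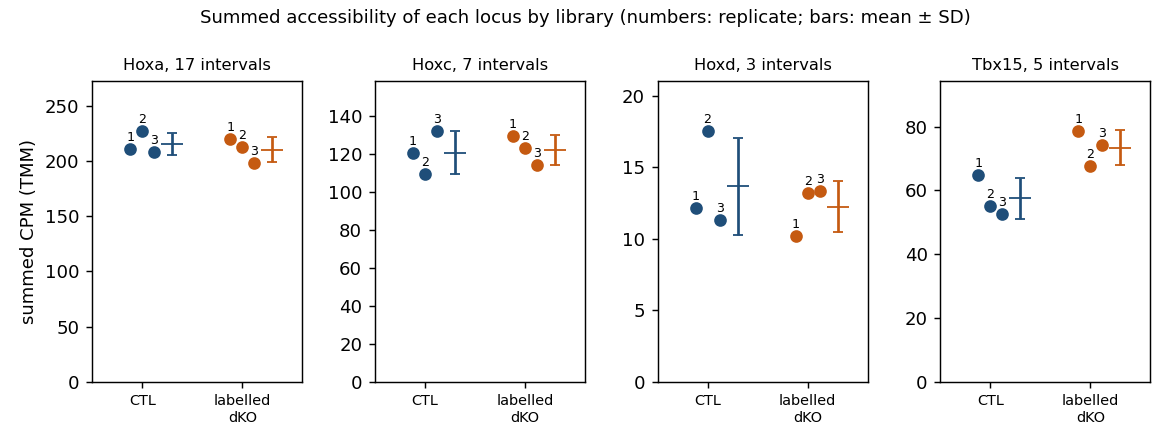
CPM (scaled by TMM) summed over the intervals of each locus, for each library (points, numbered by replicate) with the mean ± SD of 3 libraries beside them; each vertical axis starts at 0 and has its own range. The groups overlap for Hoxa, Hoxc and Hoxd, and for Tbx15 the dKO-labelled libraries (67.5 to 78.6) lie above CTL (52.7 to 64.9).

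Sums over a locus were compared as a description, with no test. Hoxa summed to 210.5, 226.8 and 207.9 CPM in CTL replicates 1, 2 and 3 and to 219.8, 212.1 and 197.7 in the dKO-labelled replicates, or 215 ± 10.3 and 210 ± 11.2 (SD, n = 3). The groups overlapped, at a log2 ratio of -0.04. Hoxc summed to 120.7, 109.7 and 132.3 in CTL and to 129.5, 123.2 and 114.1 in the dKO-labelled libraries, which also overlapped (log2 ratio 0.02). Hoxd summed to 12.1, 17.5 and 11.3 in CTL and to 10.2, 13.2 and 13.3 in the dKO-labelled libraries, at a log2 ratio of -0.16 with overlap, which became 0.06 without CTL replicate 2. Each of these differences was smaller than the spread between replicates.

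Tbx15 was the exception among the summed loci. It reached 64.9, 55.2 and 52.7 CPM in CTL and 78.6, 67.5 and 74.1 in the dKO-labelled libraries, or 57.6 ± 6.44 and 73.4 ± 5.57 (SD, n = 3). Each dKO-labelled library lay above each CTL library (as at 5.22% of all single intervals), the log2 ratio was 0.35, and all 5 intervals had a fold change above 0 (52.5% of all intervals), though 0 of 5 passed the adjusted test. Without dKO-labelled replicate 1 the log2 ratio was 0.30. Because Tbx15 was singled out among the loci after its values were seen, no p is given.

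Marker genes of the cell types in muscle were summed in the same way over their promoter intervals. Muscle fibre markers (7 of 10 genes) ranged from 371 to 491 CPM in CTL and from 388 to 503 in the dKO-labelled libraries. Fibroblast markers (5 of 7, without Dcn and Lum) ranged from 91.6 to 112 and from 106 to 121. The single satellite cell marker with an interval, Cdh15, ranged from 27.9 to 45.9 and from 41.3 to 51.1. Endothelial markers (5 of 8, without Pecam1, Emcn and Egfl7) were lower in every dKO-labelled library, at 59.0 to 62.6 against 64.4 to 79.9. Groups failed to overlap in this direction at 5.63% of all single intervals. Of the 9 endothelial intervals, 0 passed the adjusted test and 2 were lower at an unadjusted edgeR p under 0.05 (2.31% of all intervals). A fold change above 0 was seen in 3 of the 9 (52.5% of all intervals). None of 6 macrophage markers had a promoter interval. The groups overlapped in the fibre, fibroblast and satellite cell sums, and the part of any of these differences in the Tbx15 values was not tested.

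The partners and regulators of Hox genes were read at their promoter intervals. Of 9 Hox cofactors, the PBX, MEIS and PREP proteins that bind DNA with HOX factors, 8 had one (not Meis2), in 18 intervals. None passed the adjusted test, an unadjusted p under 0.05 was reached by 5 that were higher (2.64% of all intervals) and 1 that was lower (2.31%), and 14 had a fold change above 0 (52.5%). The smallest p was at Pknox2, where CTL counted 449, 375 and 273 and the dKO-labelled libraries 781, 409 and 439, a log2 fold change of 0.43 (SE 0.15, edgeR adjusted p = 0.972). The dKO-labelled replicate 1 was far above the rest there. Summed over the list, CTL ranged from 729 to 810 CPM and the dKO-labelled libraries from 740 to 1068, and the part of that 1 library in the calls was not tested.

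Of 17 Polycomb and Trithorax regulators, with Ctcf and Rad21 among them, 16 had a promoter interval (not Kdm6b), in 43 intervals. None passed the adjusted test, and 1 of the 43 was higher at an unadjusted p under 0.05 (2.64% of all intervals), in Phc1, a subunit of Polycomb repressive complex 1. It counted 23, 24 and 13 in CTL and 62, 22 and 25 in the dKO-labelled libraries (log2 fold change 0.72, SE 0.31, edgeR adjusted p = 0.972), with replicate 1 of the latter alone well above CTL. A fold change above 0 was seen in 32 of the 43 (52.5% of all intervals). The list summed to 1423 to 1510 CPM in CTL (SD 43.9) and 1411 to 1883 in the dKO-labelled libraries (SD 271). All 43 are promoter intervals, of which dKO-labelled replicate 1 held a high share, and its part in the 32 was not tested. Of 25 other limb patterning genes, only 9 had a promoter interval, and Shh, Fgf8, Fgf10, Grem1, Hand2, Isl1, Gli3, Prrx1 and Lmx1b were among the 16 without. None of their 13 intervals passed the adjusted test or an unadjusted p of 0.05.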

How the data were processed

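ATAC-seq was analysed in 3 CTL and 3 H2A.Z dKO libraries. Per the labels and the methods, the authors trimmed reads with Trimmomatic, aligned them to mm9 with Bowtie2, removed duplicates with Picard, called peaks with MACS2 and deposited, for each merged interval, an unnormalized count of fragment ends. Versions are not given in the sources used here. The 7 columns of the authors' DESeq2 comparison (mean, log2 fold change, its standard error, statistic, p-value, adjusted p-value and weight) were not used, and the column that lists an interval for a group served only as a description. There were 0 per-sample columns left unused.

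The members, gene lists and tests were chosen with earlier results of these data known. All 39768 intervals were fitted with edgeR 4.0.16 (TMM factors 0.971 to 1.02, robust quasi-likelihood, no further term, biological coefficient of variation 0.126) in R 4.3.3, and p-values were adjusted by the Benjamini-Hochberg method over the whole table. No low-count filter was applied. Sums used TMM-scaled CPM, and RPKM used total counts in intervals. No pair of libraries agreed within sampling noise (chi-square per interval from 1.45 to 4.80 over 15 pairs, where 1 is sampling noise). Given in full are the interval with the highest mean RPKM of each locus and the 3 members with the smallest p in each direction, and for each list the interval with the smallest p. Peak_12884, Peak_12880 and Hoxa13 were added after their values were seen. A few genes and a sequence that these rules choose are not reported here. Motifs and promoter classes used the mm9 genome and GENCODE vM1, with Python 3.11.15 and pandas 2.3.3. On simulated counts for 39768 intervals, with 200 changed in each of 3 simulations, the test recovered 66.7% of 2-fold and 19% of 1.5-fold changes with a mean of 7 false calls. The changed intervals were drawn from the whole table, where counts are higher than in the members, so these shares do not apply to the members alone. Alternatives were DESeq2 1.42.0, limma 3.58.1 voom, other scalings, a filter of 20 counts, a replicate block, other windows and each library left out.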

Additional observations from a re-analysis of the deposited data

How the results depend on the processing

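The 0 adjusted calls, among members and among all intervals, held under DESeq2, limma voom, median-of-ratios, total-count and loess scaling, a minimum of 20 counts in every library (which keeps 24 members), the replicate block and each library left out, and for members also with a 1 kb window and no overlapping intervals. Taking only the 5′ end of each gene as its TSS kept all 32 members, so it tested nothing. At an unadjusted p under 0.05, all intervals numbered 1970, but 756 with DESeq2 and 1064 with the filter, and members numbered 1 to 3. Leaving out single libraries, the median log2 fold change of the members ran from 0.0020 to 0.097 (main value 0.047), the summed log2 ratio of Hoxa from -0.070 to 0.0060, of Hoxc from -0.049 to 0.085, of Hoxd from -0.28 to 0.062 and of Tbx15 from 0.29 to 0.45. The range was -0.12 to 0.0077 at Peak_12883, which turned sign without CTL replicate 1, and -0.19 to 0.093 at Peak_33099, which turned without CTL replicate 3; the cause was not tested. Other alternatives kept the sign of each summed ratio and named interval. Replicate numbers did not pair the libraries (same-number correlations of deviations -0.098, -0.053 and -0.032), and with the replicate block 0 intervals were called, 3 members and 1756 intervals had an unadjusted p under 0.05, and the Tbx15 ratio was 0.35. With 73 bp added to each width, 13 of 15 leading intervals moved in percentile by more than their spread. Depth limits the members: 20 counts in every library were reached by 24 of 32, and both bounds of the confidence interval were under a 1.5-fold change at 12.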
